A study of Mus musculus and synthetic construct with 3 samples.

Results

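The genes described are Cfd, Adipoq, Retn, Hp and Lep, 5 secreted products of fat tissue, taken by their symbols from the 32285 genes of the matrix. They were followed in sections of mouse aorta profiled by Seq-Scope, a spatial method in which RNA binds to barcoded spots under the tissue, whose places are read beforehand, and is counted by unique molecular identifiers (UMIs). The AAA mice were 3 male Apoe-/- mice on a normal diet that received angiotensin II (AngII) from an implanted minipump for 4 weeks and developed an abdominal aortic aneurysm, out of 5 so infused. The control mice were 3 male Apoe-/- mice on the same diet with a saline minipump, also out of 5. The labels give the age as 16 weeks, whereas the methods of the study give a younger age at implantation. Because only AngII mice with an aneurysm entered, the infusion and the aneurysm cannot be told apart, and all 6 mice lacked Apoe. Suprarenal abdominal aortas were frozen and embedded in pairs of 1 AAA and 1 control vessel, and 10 sections of each kind shared 1 array, with 3 or 4 sections per mouse. The matrix does not state the section of a barcode, so sections, mice and conditions were assigned by position from the section map of the study.

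Fat surrounds the abdominal aorta outside the adventitia, and its adipocytes store lipid and secrete proteins known as adipokines. Cfd encodes complement factor D, or adipsin, the protease that cleaves factor B in the alternative complement pathway. Adipoq encodes adiponectin, Lep encodes the satiety hormone leptin, and Retn encodes resistin, which is an adipocyte product in mice. Hp encodes haptoglobin, the plasma protein that binds free hemoglobin, which comes mainly from hepatocytes and also from white fat.

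UMIs were summed in hexagons with 12 µm sides, and 4934 hexagons with at least 75 genes were kept, 4435 in AAA and 499 in control sections, with 122 ± 47.5 exonic UMIs each (SD over hexagons). Each AAA mouse gave 97146 to 337127 UMIs and each control mouse 9099 to 35213, so the control values rest on far fewer counts. Levels are given as CPM, the UMIs of a gene scaled to a common total of exonic UMIs in the kept hexagons of a mouse, and intervals cover counting error only. A list of 18 adipocyte genes without any of the 5 members, such as Fabp4, Plin1 and Cidec, was present in every mouse at 7648 to 8804 CPM in AAA mice and 7034 to 14426 CPM in control mice, and none of its genes was at 0 over all mice together. A hexagon with at least 2 UMIs of that list is called a fat-list hexagon. A hexagon can hold several cells or part of one, and in such sums fewer cells of a type and less RNA per cell cannot be told apart. Hepatocyte RNA was found on the whole array: the 9 hepatocyte genes reached 17720 to 19626 CPM in AAA mice and 15534 to 23742 CPM in control mice, against 21302 CPM on the array between sections, where a hexagon held 5.44 UMIs. Brown adipocyte genes stood at 236 to 422 CPM in AAA mice, against 2499, 237 and 109.9 CPM in control mice 1 to 3. The neutrophil list lay between 0 and 124 CPM, and its genes Elane and Camp were at 0.

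Each gene has its own locus, and none overlaps another annotated gene (GRCm38, GENCODE vM21). Cfd lies at chr10:79890853-79892655 (+), Adipoq at chr16:23146536-23158028 (+), Retn at chr8:3655770-3660110 (+), Hp at chr8:109575128-109579172 (-) and Lep at chr6:29060220-29073877 (+). The 150 bases before the start of 4 members (RefSeq, GRCm38.p6) are given to show what precedes genes whose UMIs fell in the same hexagons. The windows are chr10:79890703-79890852 for Cfd, chr16:23146386-23146535 for Adipoq, chr8:3655620-3655769 for Retn and chr6:29060071-29060220 for Lep, each on the plus strand. Capitals mark matches on either strand to TATAA, to TTGCNNAA, a form that C/EBP factors bind, or to CCAAT.
Cfd: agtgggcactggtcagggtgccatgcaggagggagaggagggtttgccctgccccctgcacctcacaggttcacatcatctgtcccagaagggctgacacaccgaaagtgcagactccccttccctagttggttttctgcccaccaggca
Adipoq: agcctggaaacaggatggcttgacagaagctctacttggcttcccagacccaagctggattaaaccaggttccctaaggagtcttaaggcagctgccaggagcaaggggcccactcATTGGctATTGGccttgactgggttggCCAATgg
Retn: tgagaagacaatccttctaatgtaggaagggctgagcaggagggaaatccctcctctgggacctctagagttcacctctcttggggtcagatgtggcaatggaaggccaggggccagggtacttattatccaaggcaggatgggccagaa
Lep: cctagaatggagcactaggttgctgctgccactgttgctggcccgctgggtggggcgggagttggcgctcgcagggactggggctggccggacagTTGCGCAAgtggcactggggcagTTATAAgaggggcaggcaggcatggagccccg
Adipoq held 3 matches to CCAAT, Lep held TATAA and a palindromic TTGCNNAA match, and the windows of Cfd and Retn held none of these letters. Among 32851 promoter windows of the same length, 24.5% held CCAAT, 14.2% TATAA and 5.46% TTGCNNAA.

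The members differed widely in level. Cfd had 3052 UMIs in kept hexagons and ranked 7 of all genes, Hp had 1066 (rank 40), Adipoq 157 (rank 578), Retn 102 (rank 998) and Lep 5 (rank 12115). Per kb of exon the levels were 3310 UMIs for Cfd, 664 for Hp, 114 for Adipoq, 64.6 for Retn and 1.49 for Lep, which is the same order. Cfd was found in 26.6% of kept hexagons, Hp in 15.2%, Adipoq in 2.63%, Retn in 1.68% and Lep in 0.101%. Per 1000 hexagons Cfd had 638 UMIs in kept AAA hexagons and 447 in kept control hexagons, against 17.1 on the array between sections. For Hp the values were 229 in AAA and 104 in control hexagons, against 7.74 between sections. As a share of the UMIs there, however, the sparse RNA between sections held 3136 CPM of Cfd and 1421 CPM of Hp.

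The first comparison asked whether the members differed between AAA and control aortas. Hp was higher in AAA mice, while Cfd, Adipoq and Retn did not pass the test and Lep was too rare to be tested.

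Hp stood at 2005, 2137 and 1060.3 CPM in AAA mice 1 to 3 (676, 235 and 103 UMIs), against 937, 947 and 769 CPM in control mice 1 to 3 (33, 12 and 7 UMIs). All 3 AAA mice lay above all 3 control mice, and the means were 1734 ± 587 CPM and 884 ± 99.7 CPM (SD, n = 3 each; exact two-sided permutation p = 0.1, the smallest possible). Of the 1236 genes tested, 12.1% showed this same separation upward. In the edgeR quasi-likelihood test the log2 fold change was 0.95 ± 0.29 (SE) with adjusted p = 0.0466, and 6.15% of tested genes were called in either direction (24 higher and 52 lower), so 1 called member of 4 tested is to be read against that share. The call was lost with DESeq2 (adjusted p = 0.210), without AAA mouse 1 (0.187), AAA mouse 2 (0.141) or control mouse 3 (0.0774), and without sections A2-3 and C1-1, those with the highest share of fat-list hexagons in each condition (0.207). Hp in the 3 control mice and in AAA mouse 3 was below the 1421 CPM of the array between sections. Alb, the hepatocyte albumin gene, was at 7893, 8985 and 7998 CPM in AAA mice and 7298, 11516 and 7583 CPM in control mice, and none of the 9 hepatocyte genes was called. Hp per 100 Alb UMIs was 25.4, 23.8 and 13.3 in AAA mice, against 12.8, 8.22 and 10.1 in control mice and 14.8 between sections. AAA mice 1 and 2 alone exceeded the value between sections.

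Cfd reached 6285, 3465 and 3387 CPM in AAA mice (2119, 381 and 329 UMIs), against 5140.1, 1814 and 2088 CPM in control mice (181, 23 and 19 UMIs). The groups overlapped through control mouse 1, and control mice 2 and 3 lay below the 3136 CPM between sections. Within each of the 3 embedding pairs the AAA mouse was higher, but the means of 4379 ± 1651 and 3014 ± 1846 CPM differed by less than the spread (exact two-sided permutation p = 0.5), and the edgeR log2 fold change was 0.39 ± 0.28 (adjusted p = 0.518). Control mouse 1 decided this value: without it the fold change was 1.49 with adjusted p = 0.000115, where 34 of 2374 tested genes were called higher and 21 lower. Counts over whole genes, which keep 23571 hexagons, gave 0.78 (adjusted p = 0.000308), with 164 of 10076 tested genes called higher and 42 lower. Cfd per 100 UMIs of the adipocyte list was 71.4, 41.1 and 44.3 in AAA mice, against 35.6, 24.7 and 29.7 in control mice and 37.4 between sections. The groups did not overlap in this ratio, but the share of genes that separate on this scale was not computed and the ratio was not tested.

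Adipoq was at 279, 182 and 175 CPM in AAA mice (94, 20 and 17 UMIs), against 625, 158 and 219.8 CPM in control mice (22, 2 and 2 UMIs). Control mouse 1 was the highest of the 6, and the log2 fold change of -0.95 ± 0.40 (adjusted p = 0.200) became 0.63 (adjusted p = 0.764) without it. Retn was at 181, 155 and 196 CPM in AAA mice (61, 17 and 19 UMIs), against 56.8, 158 and 109.9 CPM in control mice (2, 2 and 1 UMIs). The log2 fold change of Retn was 1.00 ± 0.59 (adjusted p = 0.384), with the lowest AAA value below the highest control value. Lep had 1, 0 and 1 UMIs in AAA mice and 3, 0 and 0 in control mice. A count of 0, taken to allow up to 3 counts of the total, leaves room for 27.3 CPM in AAA mouse 2, 237 CPM in control mouse 2 and 329.7 CPM in control mouse 3, so no difference in Lep was detectable at this depth.

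**Figure D1:**
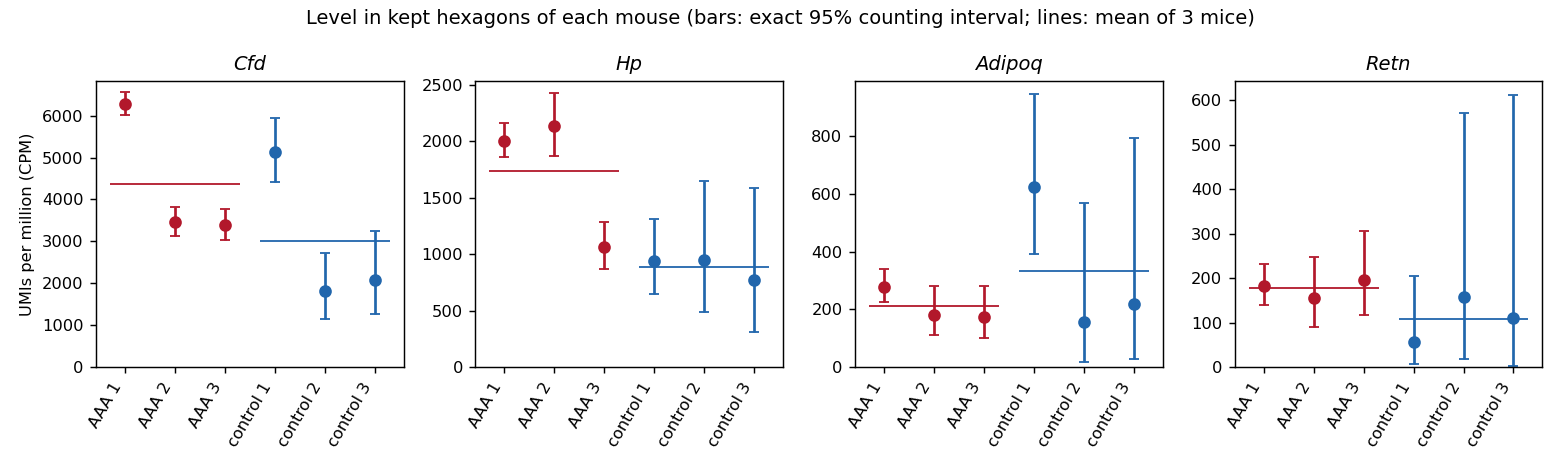
Level of Cfd, Hp, Adipoq and Retn in CPM (y axis) in the kept hexagons of each mouse (x axis), AAA mice on the left and control mice on the right of each panel, with exact 95% counting intervals as bars and the mean of 3 mice as a line. For Hp all 3 AAA mice, at 1060.3 to 2137 CPM, lie above the control mice at 769 to 947 CPM, whereas for Cfd control mouse 1 at 5140.1 CPM lies among the AAA mice.

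Among genes linked to the members, 12 receptors and partners and 12 other secreted fat products were looked at. Of the 12 receptors and partners 5 were tested and 1 was called: C3, the central complement component, whose activated form binds factor B before factor D cleaves it. C3 was at 3207, 2728 and 1719 CPM in AAA mice, against 1419.9, 1735 and 989 CPM in control mice. AAA mouse 3 lay just below control mouse 2, and the log2 fold change was 0.86 ± 0.26 (adjusted p = 0.0466), a call lost in 6 of 15 alternatives. Of the other secreted fat products 4 were tested and none was called. The 13 tested genes of the adipocyte list all had negative fold changes, with a median of -0.54 beside -0.01 over all tested genes, and 1 was called, the triglyceride lipase gene Pnpla2 (log2 fold change -1.10 ± 0.32, adjusted p = 0.0374), which lost its call in 10 of 14 alternatives. These signs rest on control mouse 1: the whole list was at 8804, 8431 and 7648 CPM in AAA mice, against 14426, 7336 and 7034 CPM in control mice, so that AAA was higher in the other 2 pairs. Without control mouse 1 11 of 15 tested genes had positive fold changes, with a median of 0.60 beside 0.31 over all tested genes, and with whole-gene counts 10 of 16 did. Other cell types moved with the condition: 5 of 11 tested macrophage genes and 5 of 6 collagen fibroblast genes were called higher in AAA, 7 of 9 smooth muscle genes lower, and the 1 tested endothelial gene was not called. Both tested red blood cell genes were called lower, which rested largely on control mouse 2: the list was at 1296, 1064 and 1019 CPM in AAA mice, against 1903, 15539 and 1099 CPM in control mice, and without that mouse 1 of the 2 was called and their median fold change was -0.71 in place of -2.56. Their part in the levels of the members was not tested.

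Levels also varied between the sections of a mouse. Cfd ran over the 10 AAA sections at 1142, 3326 and 12058 CPM (lowest, median and highest), against 0, 2484 and 6449.7 CPM over the 10 control sections. The highest AAA section was A1-3 and the highest control section C1-1, and 2 control sections had no Cfd UMI. Hp ran at 479, 1154 and 3562 CPM in AAA sections, against 0, 629 and 1686 CPM in control sections, of which 3 were at 0. Adipoq was at 49.9, 213 and 597 CPM in AAA sections and at 0, 194 and 949.95 CPM in control sections, and Retn at 0, 176 and 398 CPM and at 0, 25.0 and 471 CPM. The range overlapped between conditions for each of these 4 genes, and sections of 1 mouse are not replicates of a condition.

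**Figure D2:**
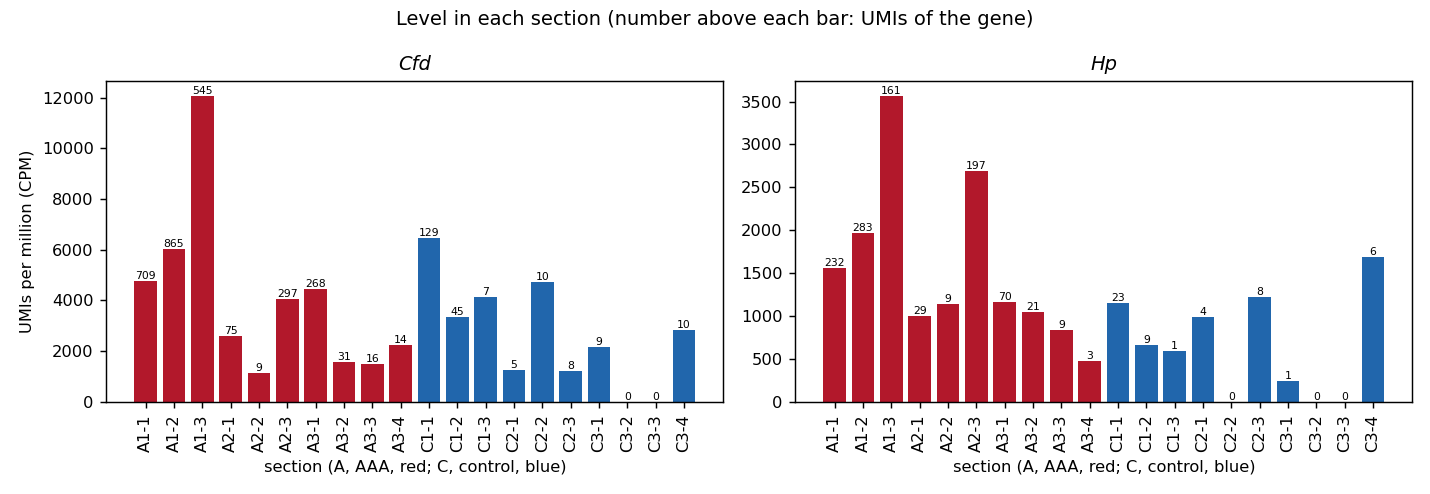
Level of Cfd and Hp in CPM (y axis) in each of the 20 sections (x axis; AAA sections in red first, control sections in blue after them), with the number of UMIs of the gene above each bar. Section A1-3 stands out for Cfd at 12058 CPM, and many control bars rest on very few UMIs.

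The second comparison asked whether the members lay in fat. Fat-list hexagons made up 23.3, 26.2 and 17.8% of kept hexagons in AAA mice and 32.4, 17.4 and 12.1% in control mice. Their 23.0% of all kept hexagons held 65.8% of the Cfd UMIs, 66.7% of Retn, 62.4% of Adipoq and 51.5% of Hp. They were also somewhat deeper, with a median of 107 to 131 UMIs in AAA mice and 111 to 126 in control mice, beside 99 to 107 and 92 to 98 in the other hexagons.

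Cfd in fat-list hexagons was at 15800.1, 6395 and 9352 CPM in AAA mice and 9379, 2761 and 3118 CPM in control mice. In the other hexagons it was at 2583, 2325 and 1903 CPM in AAA mice and 2492, 1577 and 1919 CPM in control mice. Fat-list hexagons were higher in 6 of 6 mice, as for 2.27% of the 264 genes tested, and the edgeR log2 fold change was 2.07 ± 0.15 (adjusted p = 1.22e-19), with 3.79% of genes called in either direction. The call held in all 15 alternatives run, with log2 fold changes of 1.51 to 2.46. Cfd had the lowest p of the genes tested outside the list. In these same data the study lists Cfd and Hp as markers of its adipose cluster. Fabp4, Car3, Lpl, Scd1, Cdo1 and Cyp2e1 of the adipocyte list are markers of that cluster too. Members and list were chosen with earlier results known, so p-values of this comparison are not independent support that the members lie in fat.

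Hp in fat-list hexagons was at 4035, 4188 and 1085 CPM in AAA mice and 1108, 789 and 779 CPM in control mice. In the other hexagons it was at 1216, 1339 and 1054 CPM in AAA mice and 831, 986 and 768 CPM in control mice. The large gaps were in AAA mice 1 and 2, AAA mouse 3 and control mouse 3 had nearly equal values, and control mouse 2 went the other way. The log2 fold change was 1.30 ± 0.18 (adjusted p = 2.13e-08) and lost its call without AAA mouse 1 (0.87, adjusted p = 0.0756), with DESeq2 (0.88, adjusted p = 0.372) and with no low-count filter (0.73, adjusted p = 0.726). Per 100 Alb UMIs, Hp in fat-list hexagons was 54.3, 48.1 and 14.2 in AAA mice, against 18.3, 8.70 and 9.09 in control mice. Over all mice it was 44.5 in fat-list hexagons and 14.1 in the other kept hexagons, the value in the other hexagons being near the 14.8 between sections, while 0 of the 8 tested hepatocyte genes were called between the hexagon classes.

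Adipoq had 61, 10 and 8 UMIs in fat-list hexagons of AAA mice and 19, 0 and 0 in those of control mice. In the other hexagons it had 33, 10 and 9 UMIs in AAA mice and 3, 2 and 2 in control mice. The pooled levels were 605 CPM in fat-list hexagons and 134 CPM in the others, with the fat-list value higher in 4 of 6 mice. Retn had 43, 11 and 12 UMIs in fat-list hexagons of AAA mice and 0, 1 and 1 in those of control mice. In the other hexagons it had 18, 6 and 7 UMIs in AAA mice and 2, 1 and 0 in control mice, for pooled levels of 419.9 CPM and 77.4 CPM. Both genes fell under the low-count filter of the test. With counts over whole genes they were tested and higher in fat-list hexagons, Adipoq by a log2 fold change of 1.91 (adjusted p = 8.74e-14) and Retn by 2.25 (adjusted p = 1.10e-17). That setting keeps 23571 hexagons and counts the list UMIs over whole genes too. Of its 4418 tested genes 49 were called higher and 2 lower. In AAA mice alone, a choice made after seeing the data, the values were 2.03 (adjusted p = 3.12e-06) and 2.59 (adjusted p = 1.93e-07). There 21 of 1505 tested genes were called higher and 1 lower. Of the 5 Lep UMIs, 4 were in fat-list hexagons.

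Other tested genes were also higher in fat-list hexagons, and those given here are named after their values were seen. They include Glul, for glutamine synthetase (log2 fold change 1.46), Fasn, for fatty acid synthase (1.11), the acyl-CoA binding protein gene Dbi (0.85), and the cytochrome c oxidase subunit genes Cox6a1 (0.95) and Cox8a (0.75). None of these reached the fold change of Cfd. Glul, Dbi, Cox6a1 and Cox8a are also markers of the adipose cluster of the study. The call of Cox8a was lost in 5 of 15 alternatives, among them DESeq2 (adjusted p = 0.186) and leaving out AAA mouse 1 (0.167). Those of Dbi and Cox6a1 were lost in 2 of 15 each, that of Fasn in 2 of 9 and that of Glul in 0 of 13.

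**Figure D3:**
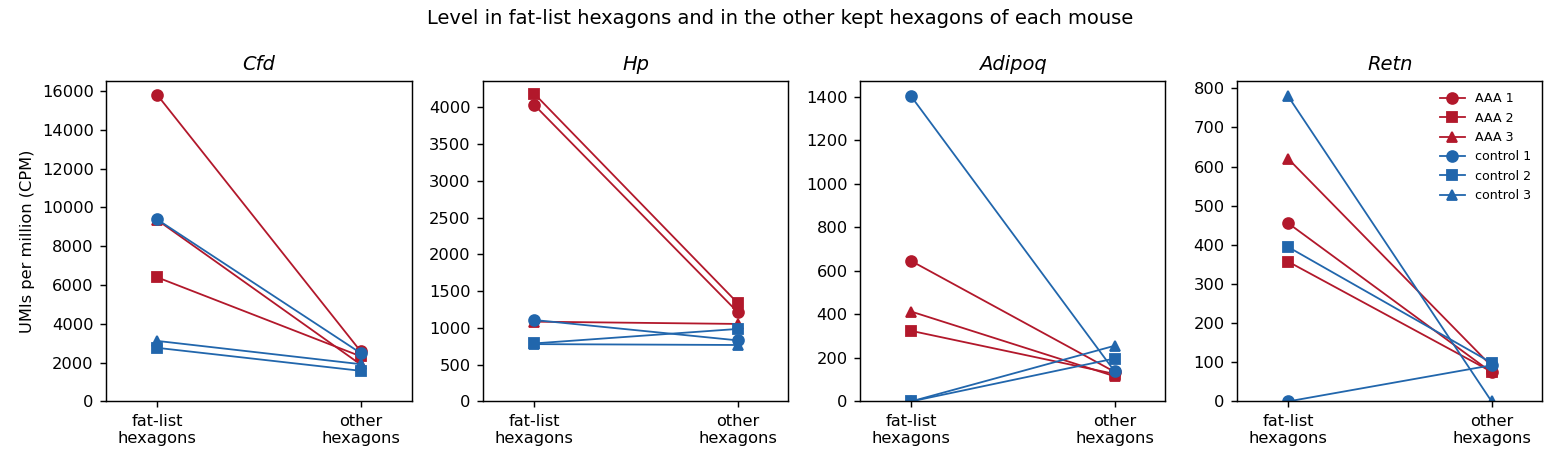
Level of Cfd, Hp, Adipoq and Retn in CPM (y axis) in fat-list hexagons (left) and other kept hexagons (right), with a line for each mouse, AAA mice in red and control mice in blue. Cfd slopes down to the right in all 6 mice, and the steepest Hp lines are those of AAA mice 1 and 2.

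Within fat-list hexagons AAA and control mice were compared directly. Hp, with the values above, had means of 3102 ± 1749 CPM in AAA and 892 ± 187 CPM in control mice (SD, n = 3 each), with AAA mouse 3 just below control mouse 1 (exact two-sided permutation p = 0.2). The edgeR log2 fold change was 1.61 ± 0.45 (adjusted p = 0.0225), and 10.2% of the 226 genes tested were called (8 higher and 15 lower). With the embedding pair as a block 7 genes were called, 1 higher and 6 lower, and Hp was that 1 gene (1.82, adjusted p = 0.0138). The Hp call was lost in 10 of 15 alternatives, among them leaving out AAA mouse 1 (adjusted p = 0.221), AAA mouse 2 (0.0942), control mouse 1 (0.194), control mouse 2 (0.117) or control mouse 3 (0.160). The control values here rest on 15, 2 and 1 UMIs. Cfd averaged 10516 ± 4809 CPM in AAA and 5086 ± 3722 CPM in control mice (exact two-sided permutation p = 0.3), with a log2 fold change of 0.69 ± 0.36 (adjusted p = 0.255), which passed without AAA mouse 2 (1.14, adjusted p = 0.0494).

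Cfd was concentrated in few hexagons. No Cfd UMI was seen in 73.4% of kept hexagons, the maximum was 28, and 171 hexagons with at least 5 Cfd UMIs (3.47%) held 48.6% of them. This minimum was set after seeing the data, and its values are a description. Of the 171, 166 were in AAA sections, 146 of them in AAA mouse 1, 6 in AAA mouse 2 and 14 in AAA mouse 3, against 5 in control sections, all in C1-1. The hexagons formed patches: 91.2% had another within 45 µm. Fat-list hexagons made up 91.2% of them and 20.6% of the rest, and 1 was Acta2-rich, that is, had at least 3 UMIs of the smooth muscle actin gene Acta2. They held 9083 CPM of Hp, 1790.1 CPM of Adipoq and 1359 CPM of Retn, against 1387, 180.4 and 107 CPM in the other hexagons, with a median of 170.0 and 105 UMIs per hexagon. AAA mouse 1 carried most of this, and without it the Hp levels were 4292 and 1424 CPM, those of Adipoq 1635 and 212 CPM and those of Retn 1226 and 135 CPM. Hp in the hexagons rich in Cfd was at 10011, 10552 and 2337 CPM in AAA mice, against 1356, 2042 and 1026 CPM in their other hexagons. In control mouse 1 it was at 1828 CPM in the 5 hexagons and 909 CPM in the others, and Retn was at 0 in the 5. In section A1-3, 46 such hexagons (12.1%) held 74.5% of the Cfd UMIs, at a median distance of 292 µm from Acta2-rich hexagons, against 185 µm for its other hexagons. The distances were 238 and 125 µm in A1-2, but the order turned in A1-1 (117 and 126 µm) and A3-1 (48.3 and 116 µm). By mouse, the hexagons rich in Cfd lay farther in AAA mouse 1 (209 and 130 µm), AAA mouse 2 (329 and 217 µm) and control mouse 1 (72.0 and 36.0 µm). In AAA mouse 3, which held 14 of them, they lay nearer (48.3 and 125 µm). Pooled without AAA mouse 1, the 25 remaining hexagons were at 72.0 µm against 136 µm for the others. That pooled value mixes mice with unlike distances.

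**Figure D4:**
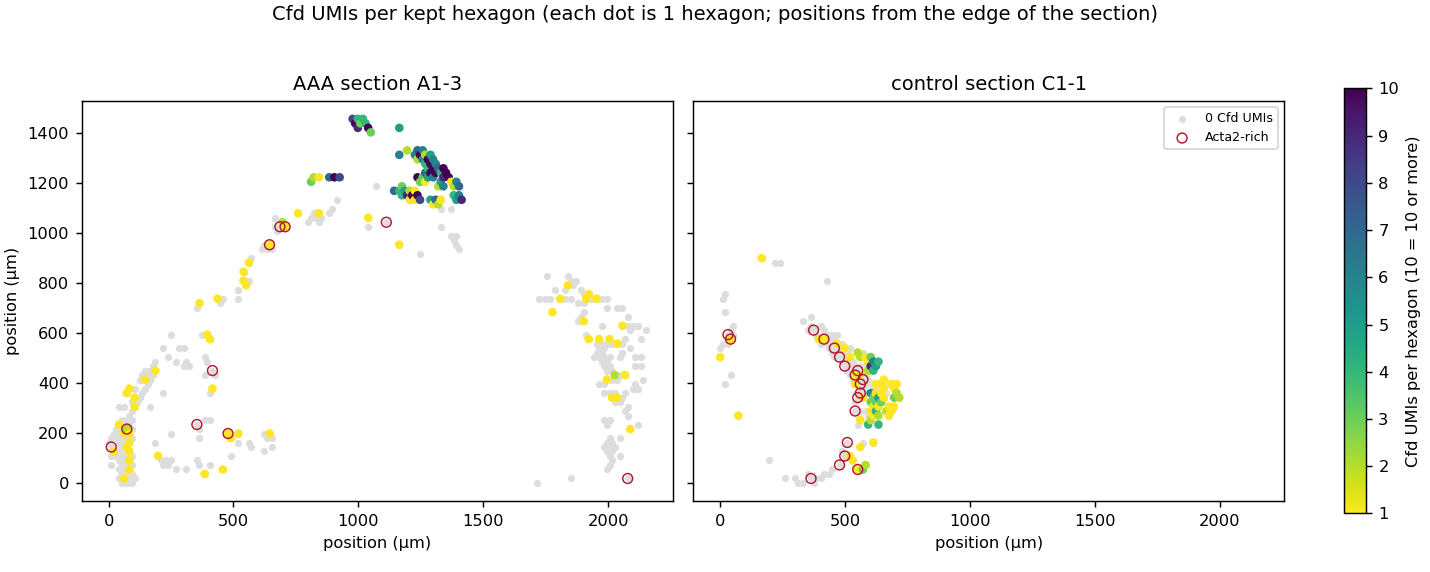
Cfd UMIs per kept hexagon (color; 10 stands for 10 or more) drawn at its position in µm on both axes for AAA section A1-3 (left) and control section C1-1 (right), with hexagons without Cfd in grey and Acta2-rich hexagons circled. In A1-3 hexagons with at least 5 Cfd UMIs lie at a median of 292 µm from the circled ones, the others at 185 µm. Sections A1-1 and A3-1 do not share this order.

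Hp, Adipoq and Retn had higher levels in hexagons that held Cfd. In AAA sections, hexagons with a Cfd UMI held 3747 CPM of Hp, 563 CPM of Adipoq and 448 CPM of Retn, against 1104, 111 and 69.6 CPM in hexagons without one, at median depths of 113.5 and 105 UMIs. In control sections, hexagons with a Cfd UMI held 1275 CPM of Adipoq and 1219.5 CPM of Hp, against 77.0 and 770.2 CPM in hexagons without one. These values rest on 23 and 3 UMIs of Adipoq and on 22 and 30 of Hp, and Retn had only 3 and 2 UMIs. Most Adipoq UMIs of control sections, 22, were from control mouse 1. The Hp levels thus lay nearer to each other in control than in AAA sections, a difference that was not tested. Over 750 windows of 100 µm, 657 in AAA and 93 in control sections, the 6 of 260 candidate genes most like Cfd were Hp (Pearson r 0.35), Car3 (0.34), Fabp4 (0.32), Lpl (0.27), Cdo1 (0.24) and Cyp2e1 (0.21). The last 5 belong to the adipocyte list, windows share mouse and section, and these correlations are descriptions. Hp had r = 0.38 in windows of AAA sections and 0.07 in those of control sections. Adipoq (r 0.38) and Retn (0.30), which were too rare to be candidates, had UMIs in 152 and 116 of the windows.

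The third comparison set hexagons far from Acta2-rich hexagons against those near them. Acta2-rich hexagons made up 3.09, 1.12 and 4.82% of kept hexagons in AAA mice and 17.1, 11.3 and 14.3% in control mice. An Acta2 UMI was found in 35.1, 31.0 and 40.9% of hexagons in AAA mice and 59.0, 67.0 and 76.9% in control mice. Far hexagons can therefore hold smooth muscle, and the split is not the same in both conditions. Hexagons that were not Acta2-rich were called near when an Acta2-rich hexagon of the same section lay within 45 µm and far when none did. By this rule a section without any Acta2-rich hexagon counts as far throughout and falls in the farthest bin of distance. There were 2172, 832 and 649 far and 399, 48 and 200 near hexagons in AAA mice, against 123, 78 and 51 far and 120, 24 and 27 near hexagons in control mice. Over all mice together the adipocyte list was at 9370.0 CPM in far and 6979 CPM in near hexagons. It was higher beyond 180 µm than within 45 µm in AAA mice 1 and 2 and control mice 1 and 3. In AAA mouse 3 it was lower there (6265 against 8063 CPM), as in control mouse 2 (6146 against 8501 CPM). The part of fat in the values of the members was not tested.

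Hp in far hexagons was at 2222, 2162 and 1181 CPM in AAA mice and 1403, 967 and 1246 CPM in control mice. In near hexagons it was at 1221, 2046 and 842 CPM in AAA mice and 593, 773 and 343 CPM in control mice. Far hexagons were higher in 6 of 6 mice, which held for 2.91% of the 172 genes tested. The edgeR log2 fold change was 0.71 ± 0.24 (adjusted p = 0.0403), where 8.72% of genes were called (3 higher and 12 lower), but the call was lost in 13 of 15 alternatives, including leaving out any 1 of the 6 mice (adjusted p 0.0547 to 0.559).

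Cfd in far hexagons was at 7223, 3467 and 3256 CPM in AAA mice and 8753, 2538 and 1661 CPM in control mice. In near hexagons it was at 2661, 3581 and 4253 CPM in AAA mice and 2667, 0 and 3427 CPM in control mice. Far hexagons were higher in AAA mouse 1, control mouse 1 and control mouse 2 and lower in the other 3 mice. The log2 fold change of 0.73 ± 0.19 (adjusted p = 0.00703) rested on the first pair: without AAA mouse 1 and control mouse 1 together, a choice made after seeing the data, it was -0.14 (adjusted p = 0.757). In control mice alone it was 1.64 (adjusted p = 5.12e-08) and in AAA mice alone 0.53 (adjusted p = 0.651). The call was also lost with either of the mice of pair 1 left out (AAA mouse 1, 0.43, adjusted p = 0.640; control mouse 1, 0.44, adjusted p = 0.564) and without AAA mouse 2 (adjusted p = 0.101), control mouse 2 (0.187) or control mouse 3 (0.0814). The third gene called higher in far hexagons was Fabp4, the adipocyte fatty acid binding protein (1.05 ± 0.30, adjusted p = 0.0141), whose call was lost in 8 of 13 alternatives.

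By distance, Cfd in AAA mouse 1 was at 2208 CPM in Acta2-rich hexagons and at 2661 CPM within 45 µm, 3744 CPM from 45 to 90 µm, 6463 CPM from 90 to 180 µm and 9636 CPM beyond. Hp in the same mouse took the values 838, 1221, 1513, 1845 and 2936 CPM over these bins. AAA mouse 2 showed no such order for Cfd, with 2815, 3581, 3262, 3228 and 3602 CPM, and AAA mouse 3 was highest from 45 to 90 µm, with 1357, 4253, 6282, 3390.4 and 1895 CPM. Control mouse 1 had 2074, 2667, 8962, 8442 and 8534 CPM, and control mice 2 and 3 held 0 to 3441 CPM in every bin. Adipoq had no UMI in the 211 Acta2-rich hexagons of all mice, whereas its counts in AAA mice were 89, 18 and 14 in far and 5, 2 and 3 in near hexagons, against 21, 2 and 1 in far and 1, 0 and 1 in near hexagons of control mice. Retn had 60, 16 and 15 UMIs in far and 1, 1 and 3 in near hexagons of AAA mice, against 1, 2 and 0 in far and 0, 0 and 1 in near hexagons of control mice. Neither gene passed the low-count filter of the main test. Where an alternative tested them, neither was called (edgeR log2 fold changes with adjusted p): in AAA mice only Adipoq had 1.18 (0.580) and Retn 1.82 (0.403), with whole-gene counts Adipoq had 0.57 (0.659), and with no filter they had 1.96 and 1.97 (0.981 each).

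Whether the distance effect differed between conditions was tested as an interaction. Since the share of Acta2-rich hexagons differed between conditions, such a difference and the unlike split cannot be told apart. For Cfd the estimate, the far over near log2 fold change in AAA minus that in control mice, was -1.01 ± 0.40, which did not pass (edgeR adjusted p = 0.547), and for Hp the estimate was -0.71 ± 0.59 (adjusted p = 0.874). Over the 250 genes tested 0.4% were called, that is 1 gene, Hba-a2, named after its value was seen.

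**Figure D5:**
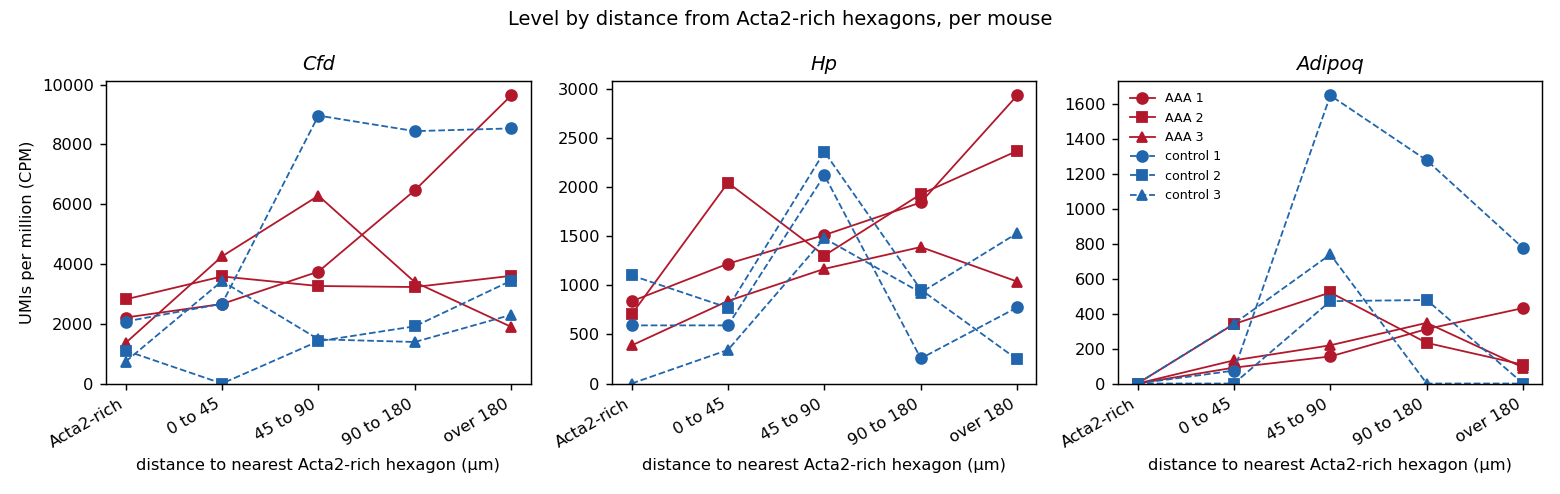
Level of Cfd, Hp and Adipoq in CPM (y axis) in Acta2-rich hexagons and in 4 bins of distance from them (x axis, µm), with a solid line for each AAA mouse and a dashed line for each control mouse. Cfd climbs with distance in AAA mouse 1, to 9636 CPM in the farthest bin, and the other AAA mice show no such climb.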

How the data were processed

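The authors deposited 1 matrix of raw UMI counts that pools every section (STARsolo 2.7.5c, mm10, per the labels), with a column of exonic counts and one over whole genes, neither normalized; its spliced, unspliced and ambiguous counts were not used. Of 9837644 barcodes, 763 had no position. Sections were placed on lane 2 by fitting barcode positions to the outlines of the study's section map (38 edges, residual SD 128 µm), since the labels pool both conditions. The facing edges of C3-1 and A3-1 were left out of the fit. Hexagons went to a section by position along the lane, with a margin of 150 µm, cut midway where margins met. Near such a border a hexagon may belong to the neighbouring section, which can be of the other condition, and this was not tested. UMIs were binned in hexagons with 12 µm sides after removing 8551 genes starting with mt or Gm, and hexagons with at least 75 genes were kept. The number of hexagons in the study was not reached: it kept far more than the 4934 here or the 23571 with whole-gene counts. No cells were called and doublets were not treated.

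Exonic counts were summed per mouse (3 AAA, 3 control) and tested with edgeR 4.0.16 in R 4.3.3 by its quasi-likelihood test after TMM scaling and the filterByExpr filter, with p-values adjusted by Benjamini-Hochberg over all tested genes and a threshold of 0.05. The fit was also run on simulated counts with the same spread setting for all genes and no mouse that stood apart. That check does not cover mice such as control mouse 1. The study gives no test of the Seq-Scope counts over mice. Far against near and fat-list against other hexagons carried the mouse as a block, and genes of the adipocyte list were left out of tests between fat-list hexagons. Single values were compared by exact permutation. Permutation p-values use only the values of a gene in each mouse. Those of edgeR rest on a spread between mice that is estimated in part over all tested genes. They do not measure the spread of a single gene alone. Intervals (exact, 95%) cover counting error only. Alternatives were DESeq2 1.42.0, no TMM, no low-count filter, whole-gene counts, other gene minimums, other thresholds, leaving out each mouse, and the embedding pair as a block.

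Mice were embedded in pairs per the labels. The deviations of the mice of a pair from their group means correlated at 0.0419, 0.0226 and 0.0347, so the pair was kept as an alternative.

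The members and all gene lists were chosen with earlier results of these data known. Named genes were the 5 members, Acta2, genes of the lists that passed a test and the 6 genes most like Cfd by Pearson correlation of log2(CPM + 100) over windows of 100 µm with at least 1000 UMIs, among genes with at least 300 UMIs. One gene called between fat-list and other hexagons is not reported here. Lane 1 was not used beyond background levels, and no deposited column of per-sample values was set aside.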

Additional observations from a re-analysis of the deposited data

Results flagged for a closer look

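The 5 members were looked at over the 10 sections of each condition, 10 groups in all, and a section far from the others was found in 5 of them. Chance gives such a section in about 1 of 20 groups of independent, normally spread values. That rate does not carry over here, since sections share mice, Lep was at 0 in most sections and 3 of the 5 cases rest on 1 to 3 UMIs. Cfd in section A1-3 was at 12058 CPM, with the next AAA section at 6019.9 CPM. Adipoq in the same section was at 597 CPM, with the next at 319 CPM. Retn in section C2-2 was at 471 CPM, with the next control section at 239.6 CPM, and its value rests on 1 UMI. Lep in section A3-1 was at 16.7 CPM, with the next AAA section at 6.75 CPM, both from 1 UMI. Lep in section C1-1 was at 149.99 CPM, from 3 UMIs, and the other control sections were at 0.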

How the results depend on the processing

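The direction of Cfd and Hp between AAA and control mice and between fat-list and other hexagons was kept in all 15 alternatives of each. Cfd between AAA and control mice passed the threshold with no low-count filter (1.07, adjusted p = 0.0359, where the median of all genes moved to 1.32) and with whole-gene counts (0.78), and leaving out 1 mouse gave 0.0712 to 1.49. Hp lost its call with DESeq2 (0.95) and without the sections richest in fat (0.81), a choice added after seeing the data, and leaving out 1 mouse gave 0.80 to 1.31 (adjusted p over all alternatives 1.37e-05 to 0.210). Adipoq ran at -1.04 to 0.63 without 1 mouse and reversed without control mouse 1, and Retn reversed to -0.13 with all hexagons of the sections. In fat-list against other hexagons, Hp lost its call with DESeq2 (0.88) and no filter (0.73), and leaving out 1 mouse gave 0.87 to 1.54 for Hp and 1.81 to 2.24 for Cfd. Within fat-list hexagons Hp missed the threshold with DESeq2 (1.73), no filter (2.94), gene minimums of 50 (1.56) or 100 (1.74) and 1 list UMI (0.99), and leaving out 1 mouse gave 1.48 to 2.48 for Hp and 0.43 to 2.32 for Cfd.

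In far against near hexagons Cfd lost its call with DESeq2 (0.73), no filter (1.20), 2 Acta2 UMIs (0.12), 90 µm (0.34) and AAA mice only (0.53), had its largest value in control mice only (1.64, added after seeing the data) and reversed without pair 1 (-0.14), and leaving out 1 mouse gave 0.43 to 1.08. Hp lost it with DESeq2 (0.69), no filter (1.24), whole-gene counts (0.39), 2 Acta2 UMIs (0.24), an Acta2 share of 2% (0.44), 90 µm (0.32) and AAA mice only (0.66), and leaving out 1 mouse gave 0.61 to 0.82. In the interaction Hp reversed with 2 Acta2 UMIs (0.74) and with 90 µm (1.51), and leaving out 1 mouse, added after seeing the data, gave -0.99 to -0.52 for Hp and -1.74 to -0.14 for Cfd.

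The number of called genes moved with the settings. Between AAA and control mice, where 76 were called, it was 50 with DESeq2, 206 with whole-gene counts, 117 and 48 with gene minimums of 50 and 100, 144 with all hexagons, 49 without the sections richest in fat and 50 to 89 without 1 mouse. For far against near it was 15, and 7 with DESeq2, 0 with no filter, 42 with whole-gene counts, 26 and 2 with gene minimums of 50 and 100, 0 with 2 Acta2 UMIs, 9 with the Acta2 share, 1 with 90 µm, 0 in AAA mice only, 3 in control mice only, 3 without pair 1 and 2 to 8 without 1 mouse. For fat-list against other hexagons it was 10, and 5 with DESeq2, 51 with whole-gene counts, 26 and 5 with the gene minimums, 6 and 21 with 1 and 3 list UMIs, 22 in AAA mice only and 3 to 17 without 1 mouse. Within fat-list hexagons it was 23, and 3 with DESeq2, 1 with no filter, 10 with whole-gene counts, 12 and 3 with the gene minimums, 46 and 5 with 1 and 3 list UMIs and 0 to 17 without 1 mouse. For the interaction it was 1, 0 with 2 Acta2 UMIs and 0 to 2 without 1 mouse. Whole-gene counts and lower minimums test more genes over more hexagons; for the other settings the cause was not tested.

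With the embedding pair as a replicate block, Cfd had 0.58 (adjusted p = 0.110) and Hp 0.99 (adjusted p = 0.0180) between AAA and control mice, with 62 genes called. Within fat-list hexagons the block gave 1.01 (adjusted p = 0.0609) for Cfd and 1.82 for Hp with 7 genes called. The block changed no other call of a member, and it ended that of Pnpla2 (-1.08, adjusted p = 0.0949). The pairs did not deviate together by more than 0.1, so the pairing rests on the embedding alone. Control mice with as few as 7 Hp UMIs limit the precision of every comparison between conditions.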

Other observations

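Genes of brown fat were unevenly spread over the mice. Ucp1, the uncoupling protein of brown adipocytes, was at 116, 72.8 and 124 CPM in AAA mice, against 682, 78.9 and 109.9 CPM in control mice. Cidea, a lipid droplet protein of brown fat, was at 44.5, 27.3 and 113 CPM in AAA mice and at 539.6 CPM in control mouse 1, and it had no UMI in the other 2 control mice. Cox8b followed with 53.4, 27.3 and 103 CPM in AAA mice, against 738, 78.9 and 0 CPM in control mice. Control mouse 1, in which Adipoq and the adipocyte list were also highest, stood apart for all 3 genes. None of the 7 brown adipocyte genes was frequent enough for the main test between AAA and control mice. With all hexagons of the sections 4 were tested and 4 were called lower in AAA (median log2 fold change -1.34). With whole-gene counts 1 of 4 was called lower. Without control mouse 1 only 1 gene was tested, at 0.52, and it was not called.

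Factor B, the substrate of the Cfd product, is encoded by Cfb. Its level was 448, 346 and 474 CPM in AAA mice, against 142, 237 and 219.8 CPM in control mice. The groups did not overlap, and the control values rest on 5, 3 and 2 UMIs (edgeR log2 fold change 1.26 ± 0.42, adjusted p = 0.0810). Adipor2, a receptor of adiponectin, was at 389, 327 and 309 CPM in AAA mice, against 170.4, 158 and 109.9 CPM in control mice, from 6, 2 and 1 UMIs (edgeR log2 fold change 1.15 ± 0.44, adjusted p = 0.149). Neither gene passed the threshold. These genes are named after their values were seen, and 12.1% of tested genes separated the groups in this way. The Lep receptor Lepr had 7, 0 and 1 UMIs in AAA mice and 3, 0 and 0 in control mice. The haptoglobin receptor Cd163 had 4, 0 and 1 UMIs in AAA mice and 1, 0 and 0 in control mice.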
